A study of Mus musculus with 19 samples.

Results

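Engulfment of synapses and debris by astrocytes uses receptors on the cell surface, soluble ligands that bridge phosphatidylserine on the target to those receptors, and adaptors inside the cell. Described here are 9 genes of this machinery, taken by gene symbol from the deposited expression table of 24537 genes. All 9 were found, and all 9 passed the filter on low values along with 15049 genes in total. The members are the receptors Megf10, Mertk, Axl, Lrp1 and Itgb5, the bridging ligands Gas6, Pros1 and Mfge8, and the adaptor Gulp1.

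MERTK and AXL are receptor tyrosine kinases of the TAM family. GAS6 binds both, whereas protein S, the product of Pros1, binds MERTK and not AXL. MFGE8 bridges phosphatidylserine to integrins that contain the alpha v subunit, and Itgb5 encodes the beta 5 partner of alpha v. MEGF10, the mouse relative of CED-1 in Caenorhabditis elegans and Draper in Drosophila, and MERTK are known for the uptake of synapses by astrocytes. LRP1 is a large endocytic receptor of many ligands, and GULP1, the relative of worm CED-6, is an adaptor that binds the tails of MEGF10 and LRP1.

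RNA was measured in nuclei of mouse cortex, sorted as positive for the astrocyte transcription factor SOX9 and negative for the neuronal protein NEUN. The 19 libraries came from hemizygous male C57BL/6J mice between postnatal days 26 and 28, all carrying 2 floxed Smad4 alleles. WT (Fmr1 +/y, no GFAP-cre) had 4 libraries and Fmr1 KO (Fmr1 -/y, no GFAP-cre) had 5. Smad4 cKO (Fmr1 +/y with GFAP-cre) had 6, and the double mutant (Fmr1 -/y with GFAP-cre) had 4. The Cre is Gfap-Cre73.12, driven by a Gfap promoter, so the presence of Cre and the loss of Smad4 cannot be told apart. Fmr1 encodes the RNA-binding protein FMRP, and Smad4 the common SMAD of the BMP and TGF-beta pathways. Days 26, 27 and 28 held 8, 9 and 2 libraries, and both libraries of day 28 were labelled Fmr1 intact.

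Levels are given as scaled TPM, a transcript abundance per length divided by a library factor. A change is the difference of log2(scaled TPM + 1) between groups, given ± its standard error (SE). A gene is said to pass when its adjusted p is below 0.05. Fmr1 stood at 26.1 ± 4.27 scaled TPM (SD, n = 4) in WT and 38.8 ± 1.94 (n = 5) in Fmr1 KO, so it was not lower in the libraries labelled KO. Smad4 stood at 33.2 ± 2.61 (n = 4) in WT and 32.3 ± 2.23 (n = 6) in Smad4 cKO. A value per gene does not resolve either engineered allele, and libraries are named by their labels. The 14 astrocyte markers summed to between 7930.9 and 14276 scaled TPM per library, and the 14 neuron markers to between 174.35 and 532.94. Oligodendrocyte markers reached 3723.7, microglia markers 499.8 and endothelial markers 630.25, and 0 markers of these lists were at 0 in every library. Rn45s, the ribosomal RNA precursor, took 20.7% to 35.7% of listed TPM in WT and 21.3% to 35.1% in Smad4 cKO, but 17.2% to 22.8% in Fmr1 KO and 15.6% to 23.1% in the double mutant. Its part in the Fmr1-label values of Gas6, Pros1, Pear1 and C4b was not tested. In bulk nuclei, fewer cells of a type and less RNA per cell cannot be told apart.

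Gas6 was the 1 member that passed in any comparison, and Lrp1, which passed in none, came closest among the others. The DNA around their starts is shown because SMAD proteins act at promoters and enhancers. The sequences are those of RefSeq on GRCm38.p6, from 250 bases before the annotated start to 50 after it, on the minus strand, 5′ to 3′. Capitals mark CAGAC, the short SMAD-binding element, or its reverse complement GTCTG. The window of Gas6 is chr8:13494486-13494785 and that of Lrp1 is chr10:127621099-127621398.
Gas6: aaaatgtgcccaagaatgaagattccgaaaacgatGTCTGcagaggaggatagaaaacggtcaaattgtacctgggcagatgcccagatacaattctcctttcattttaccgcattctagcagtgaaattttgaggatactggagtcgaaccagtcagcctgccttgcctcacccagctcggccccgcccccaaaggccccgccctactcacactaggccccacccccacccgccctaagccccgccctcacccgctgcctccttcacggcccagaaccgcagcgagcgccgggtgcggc
Lrp1: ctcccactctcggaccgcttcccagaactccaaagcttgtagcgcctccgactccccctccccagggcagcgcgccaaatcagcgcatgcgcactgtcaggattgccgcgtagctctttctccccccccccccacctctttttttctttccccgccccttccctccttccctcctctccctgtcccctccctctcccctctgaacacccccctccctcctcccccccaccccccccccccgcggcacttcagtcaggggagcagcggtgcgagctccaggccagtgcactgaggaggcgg
The Gas6 window held 1 match to CAGAC on either strand, starting at position -215 from the gene start, and the Lrp1 window held 0. That motif is present in 49.6% of 32851 promoter windows of the same length. Neither window held the GC-rich SMAD motif GGCGCC, present in 11.9% of windows, or the palindromic SMAD box GTCTAGAC, present in 0.213%. Both strands were searched, and none of the motifs contains another. A match is a string of letters, not a binding site. Windows were given for 8 of the 9 members, and GTCTAGAC was in none of those 8. Axl and Gulp1, which did not pass, each held 2 matches to CAGAC, and Mertk, Axl and Mfge8 each held 1 match to GGCGCC.

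In WT nuclei the members ran from among the most abundant genes to the lower part of the range. Mertk was the most abundant at 372 ± 84.8 scaled TPM (SD, n = 4), the 80th highest of the 15049 genes tested. Mfge8 followed at 287 ± 107 and Lrp1 at 142 ± 12.0. Axl stood at 57.3 ± 5.93, Gas6 at 45.5 ± 1.62, Megf10 at 44.4 ± 5.04 and Itgb5 at 29.4 ± 3.91. Gulp1, at 11.6 ± 1.81, and Pros1, at 7.79 ± 1.55, came last, with Pros1 at rank 10904. Mertk and Mfge8 overlapped in every genotype, with Mertk higher in 2 of 4 WT libraries, 6 of 6 Smad4 cKO, 3 of 5 Fmr1 KO and 3 of 4 double mutant libraries. Mfge8 and Lrp1 overlapped only in Smad4 cKO. Gas6 and Megf10 overlapped in WT, where Gas6 was higher in 2 of 4 libraries. Gas6 was below Megf10 within each of the 15 mutant libraries. The other neighbours in this order (Lrp1 and Axl, Axl and Gas6, Megf10 and Itgb5, Itgb5 and Gulp1, Gulp1 and Pros1) did not overlap in any genotype.

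**Figure D1:**
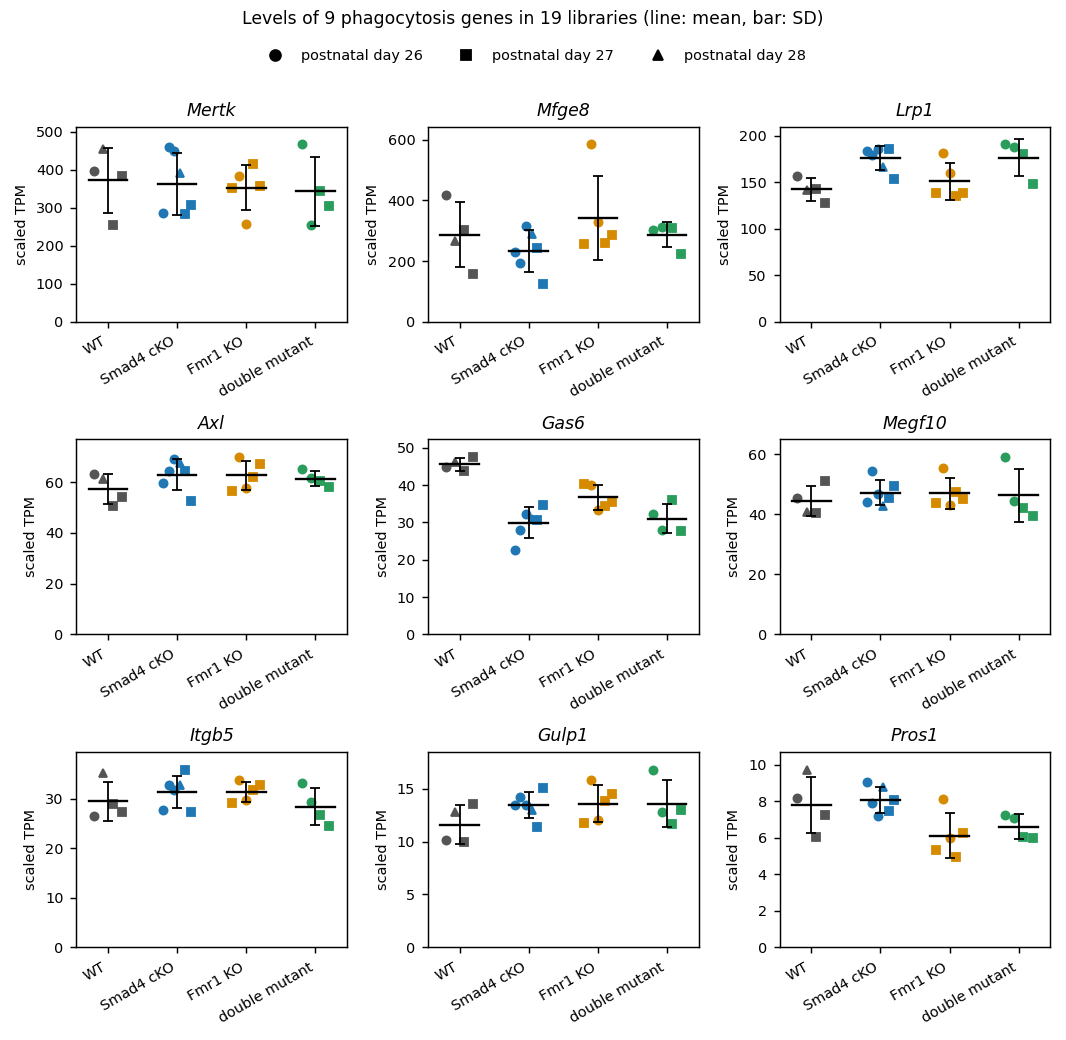
Scaled TPM of the 9 members in each of the 19 libraries, by genotype, on linear axes from 0, with a point for each library shaped by postnatal day, a line for the mean and a bar for the SD. The 4 WT libraries of Gas6 lie above all libraries of the other genotypes, and Mfge8 is the member with the widest spread.

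Gas6, the ligand shared by MERTK and AXL, was the 1 member that passed in any of the 8 comparisons made. Its WT libraries were at 44.8, 46.1, 43.7 and 47.5 scaled TPM. The 6 Smad4 cKO libraries ran from 22.6 through a median of 30.9 to 34.8. The highest Smad4 cKO library was below the lowest WT library, so the groups did not overlap. Gas6 fell by 0.60 ± 0.10 on the log2 scale in Smad4 cKO against WT (limma, adjusted p = 0.00464), a fold of 0.659 with a 95% interval from 0.569 to 0.763. In that comparison 0.784% of all genes tested passed, 0.259% in the lower direction, and 0.89% had lower, non-overlapping libraries in Smad4 cKO. Mean levels were 45.5 ± 1.62 (n = 4) in WT and 29.9 ± 4.20 (n = 6) in Smad4 cKO.

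Gas6 was also low in both groups labelled Fmr1 KO. The 5 Fmr1 KO libraries were at 40.3, 40.1, 33.3, 34.4 and 35.4 scaled TPM, and the 4 double mutant libraries at 32.4, 27.9, 35.9 and 27.8. None of these 9 libraries reached the lowest WT library. The double mutant and Fmr1 KO ranges overlapped through 1 double mutant library at 35.9. Against WT, Gas6 fell by 0.55 ± 0.11 in the double mutant (limma, adjusted p = 0.0190), where 0.957% of genes passed, 0.465% in the lower direction, and 2.85% were lower without overlap. That call was lost, at a log2 difference of -0.44, with microglia, neuron and endothelial scores in the model (adjusted p = 0.172), and also without WT replicate 2 (0.0688) or 4 (0.0579), or double mutant replicate 2 (0.0751) or 4 (0.0783). Fmr1 KO against WT gave -0.31 ± 0.10 with an adjusted p of 0.335 and an unadjusted p of 0.00914 (limma). Non-overlapping lower libraries were seen for 0.957% of genes in that comparison. With the cell-type scores in the model this Gas6 value was -0.18 (adjusted p = 0.861). All 10 endothelial markers were below 0 in both groups against WT, with medians of -0.977 in Fmr1 KO and -0.871 in the double mutant, and 0 of them passed in either (10 unadjusted in each). All 10 oligodendrocyte markers were above 0 in both, with medians of 0.608 and 1.29, and 0 passed. Of 15 microglia markers 0 were above 0 in Fmr1 KO (median -0.589) and 2 in the double mutant (-0.211), with 0 passing. The part of these cell types in the Gas6 values was not tested.

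Averaged over both Fmr1 backgrounds, Gas6 fell with the Smad4 label by 0.42 ± 0.07 (limma, adjusted p = 0.00266), a fold of 0.747 (95% interval 0.672 to 0.830), where 1.81% of genes passed, 0.771% in the lower direction. The difference was -0.24 ± 0.10 in the double mutant against Fmr1 KO, which did not pass (adjusted p = 0.799). The interaction, that is the Smad4 difference with Fmr1 labelled KO minus that with Fmr1 labelled intact, was 0.36 ± 0.15 (limma, unadjusted p = 0.0237, adjusted p = 1.00). A difference between the backgrounds was therefore not detected for Gas6 after adjustment. The double mutant and Smad4 cKO stood at 31.0 ± 3.90 (n = 4) and 29.9 ± 4.20 (n = 6), a difference of 0.05 ± 0.10. These comparisons share libraries, WT above all, so their values are not independent of each other.

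Within postnatal days, with both Fmr1 labels pooled, the Smad4-labelled libraries were lower in Gas6 by the mean log2 value. Day 26 set 3 Smad4 cKO and 2 double mutant libraries against 1 WT and 2 Fmr1 KO. Day 27 set 2 Smad4 cKO and 2 double mutant libraries against 2 WT and 3 Fmr1 KO. The Fmr1 label was therefore not balanced within either day, and within-day values of other genes used the same splits. The difference was -0.45 on day 26 (5 libraries against 3, with no overlap) and -0.31 on day 27 (4 against 5, with overlap). Libraries lower without overlap were seen for 3.42% of genes in that split of day 26. Markers of neurons had a median log2 difference of -0.455 in Smad4 cKO against WT, with 0 of 14 passing. All 10 oligodendrocyte markers were above 0 there (median 0.342) and for the averaged Smad4 label (0.509), with 0 passing in either. They are not among the 3 cell-type scores, which cover microglia, neurons and endothelium. The part of oligodendrocyte RNA in the Smad4-label values of Gas6, Lrp1, Lrp4 and C4b was not tested. With the 3 cell-type scores in the model, Gas6 was at -0.54 in that comparison (limma, adjusted p = 0.0181) and at -0.40 for the averaged Smad4 label (adjusted p = 0.00397). Gas6 shares bases with Tmem255b on the opposite strand, whose mean was between 0.677 and 1.03 scaled TPM over the genotypes. The sources used here do not state whether counting used strand.

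Pros1, the ligand of MERTK that AXL does not bind, was the member of lowest level. Its WT libraries were at 8.18, 9.70, 6.02 and 7.24 scaled TPM and its Fmr1 KO libraries at 5.34, 8.09, 5.96, 4.94 and 6.23. Those groups overlapped, as did Smad4 cKO (7.21 to 9.03) and the double mutant (7.26, 7.09, 6.05 and 5.98). For the averaged Fmr1 label the log2 difference of Pros1 was -0.28 ± 0.09 (limma, unadjusted p = 0.00612, adjusted p = 0.146), which did not pass. In the same comparison all 10 endothelial markers were below 0, with a median of -0.932, and 6 of them passed. All 15 microglia markers were below 0 there as well, with a median of -0.369, and 0 of them passed. The part of either cell type in the Pros1 value was not tested. With cell-type scores in the model the Pros1 difference was -0.04 (adjusted p = 0.937), and with library weights it was -0.33 and passed (adjusted p = 0.0447). With the cell-type scores 0 of all genes passed for this label, against 230 in the main fit. The difference of Pros1 with the averaged Smad4 label was 0.08.

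Mfge8, the integrin ligand, varied most among libraries, from 124.04 to 585.62 scaled TPM. Its WT libraries were at 419, 267, 302 and 159, and its Smad4 cKO libraries ran from 124 through a median of 236 to 316. Fmr1 KO libraries were at 255, 586, 328, 259 and 286, and double mutant libraries at 303, 312, 309 and 225. All 4 genotypes overlapped. The averaged Smad4 difference was -0.23, with a 95% interval of the fold from 0.629 to 1.15, and the averaged Fmr1 difference was 0.31 (0.915 to 1.67). Neither passed, and these intervals are the widest of the 9 members. Within day 26, Smad4-labelled libraries were lower in Mfge8 without overlap (-0.69, 5 against 3), as were 3.42% of genes, and on day 27 the difference was -0.20 with overlap. The 3 intact libraries of day 26 include the Fmr1 KO library at 586, without which the difference was -0.47 (5 against 2), an alternative chosen after seeing the data.

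Lrp1, the endocytic receptor, came closest to passing among the other 8 members. Its WT libraries were at 157, 141, 143 and 128 scaled TPM, and the Smad4 cKO libraries ran from 154 through 182 to 186. Fmr1 KO libraries were at 139, 182, 160, 136 and 139, and double mutant libraries at 191, 188, 180 and 148. Smad4 cKO and the double mutant were mostly high, but each overlapped its control. Lrp1 was at 0.30 ± 0.09 in Smad4 cKO against WT (limma, unadjusted p = 0.00467, adjusted p = 0.212). It was at 0.23 ± 0.10 in the double mutant against Fmr1 KO (adjusted p = 0.787). The averaged Smad4 label gave 0.27 ± 0.07, a fold of 1.20 (95% interval 1.09 to 1.33), just short of passing at an adjusted p of 0.0547 (limma). That value passed in 9 of 31 alternatives, among them the fits without WT replicate 1 (0.0463), Smad4 cKO replicate 6 (0.0342), Fmr1 KO replicate 2 (0.0140) or double mutant replicate 4 (0.0193), and its adjusted p ranged from 0.0140 to 0.191. Within days Lrp1 was higher by 0.16 on day 26, with overlap, and by 0.28 on day 27, without, where 1.13% of genes were higher without overlap.

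The other 5 members, namely the receptors Mertk, Axl, Megf10 and Itgb5 and the adaptor Gulp1, passed in none of the 8 comparisons. Mertk ranged from 253.41 to 466.94 scaled TPM over all libraries, with group means of 372 ± 84.8 in WT, 362 ± 81.2 in Smad4 cKO, 352 ± 59.6 in Fmr1 KO and 343 ± 90.4 in the double mutant. Its fold with the averaged Smad4 label had a 95% interval from 0.783 to 1.20. Axl was steadier, between 50.422 and 69.845, with an interval from 0.950 to 1.13. Megf10 lay between 39.609 and 59.065, and its interval was 0.913 to 1.14 for the Smad4 label and 0.908 to 1.13 for the Fmr1 label. Itgb5 lay between 24.491 and 35.765 (0.886 to 1.08 for Smad4), and Gulp1 between 9.9897 and 16.768 (0.950 to 1.20). These bounds state which differences the libraries do not exclude, and they do not show that levels were equal.

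Counted over the members, 1 of 9 passed in Smad4 cKO against WT, 1 in the double mutant against WT and 1 for the averaged Smad4 label, each time Gas6 and each time lower. Each of these 3 comparisons had 2 members below 0.05 before adjustment, beside 8.28%, 12.0% and 11.0% of genes in the same order. The double mutant against Fmr1 KO had 0 of 9 passing in limma and 2 (Gas6 and Lrp1) below 0.05 before adjustment, where 0.405% of genes passed and 5.48% did so before adjustment. Fmr1 KO against WT had 0 with 2 unadjusted (Gas6 and Pros1), where 0.0% of genes passed and 8.23% did so unadjusted. The double mutant against Smad4 cKO had 0 with 0 unadjusted, beside 0.0199% and 7.56% of genes. The averaged Fmr1 label had 0 with 1 unadjusted, beside 1.53% and 13.2% of genes, and the interaction had 0 with 1 unadjusted, beside 0.0% and 1.66%. The median log2 difference over the 9 members was 0.0871 in Smad4 cKO against WT, beside -0.014 over all genes. For the averaged Smad4 label these medians were 0.0286 and -0.00438, and for the averaged Fmr1 label 0.0204 and 0.00894.

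**Figure D2:**
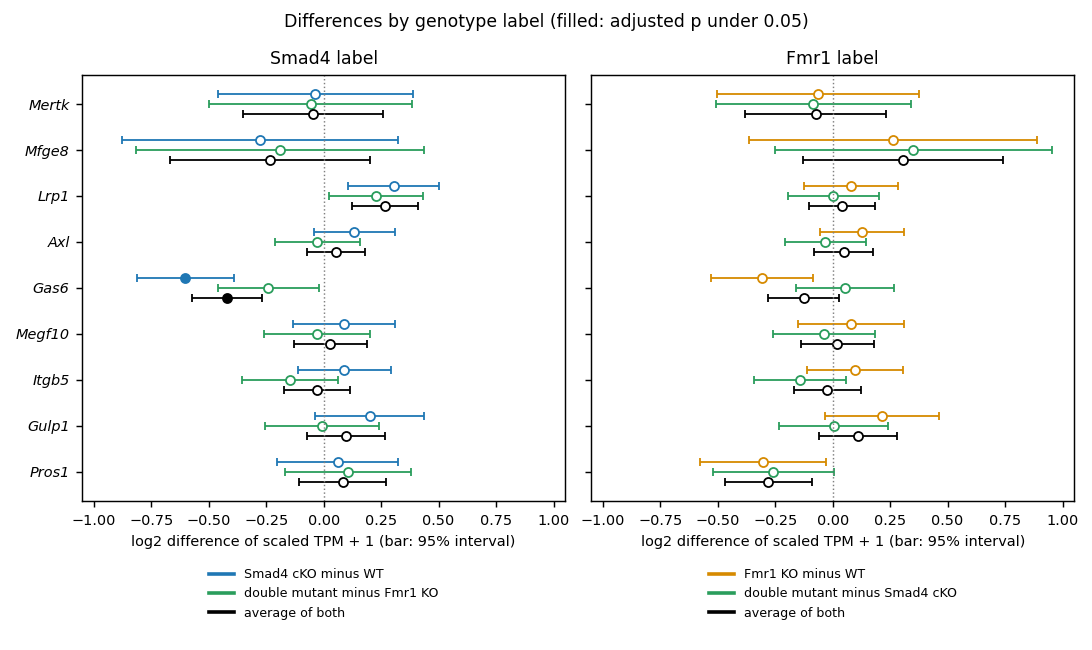
Log2 differences of scaled TPM plus 1 for the 9 members by Smad4 label (left) and Fmr1 label (right), in each background and averaged, with 95% intervals from limma and filled points where the adjusted p was under 0.05. Gas6 is filled in Smad4 cKO against WT (-0.60) and for the averaged Smad4 label (-0.42).

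Within a library, the RNA of members in nuclei was compared as a ratio of scaled TPM, and protein was not measured. Gas6 over Axl and Gas6 over Mertk set the RNA of a ligand against that of its receptors. Gas6 over Pros1 sets ligand against ligand, and Mertk over Axl receptor against receptor. LRP1 is not described here as a receptor of GAS6. Gas6 over Axl was 0.801 ± 0.0823 (SD, n = 4) in WT and 0.480 ± 0.0964 (n = 6) in Smad4 cKO. The ratio in Fmr1 KO was 0.590 ± 0.0731 (n = 5), and the double mutant had 0.506 ± 0.0613 (n = 4). The WT libraries began at 0.712 and the Smad4 cKO libraries ended at 0.664, so these did not overlap. Gas6 over Mertk did overlap between WT (0.1014 to 0.1725) and Smad4 cKO (0.06098 to 0.1136). Its means were 0.128 ± 0.0313 in WT, 0.0857 ± 0.0210 in Smad4 cKO, 0.106 ± 0.0177 in Fmr1 KO and 0.0935 ± 0.0178 in the double mutant. Gas6 over Lrp1 was 0.322 ± 0.0370 in WT, 0.172 ± 0.0342 in Smad4 cKO, 0.246 ± 0.0325 in Fmr1 KO and 0.176 ± 0.0221 in the double mutant. Gas6 over Pros1 was 6.01 ± 1.12 in WT and 6.15 ± 1.07 in Fmr1 KO, with lower means of 3.75 ± 0.721 in Smad4 cKO and 4.74 ± 0.851 in the double mutant. The double mutant libraries (3.931 to 5.935) overlapped those of WT (4.749 to 7.266) and Fmr1 KO (4.953 to 7.548). Mertk over Axl overlapped in all genotypes, with means of 6.44 in WT, 5.74, 5.63 and 5.57. These ratios are built from the levels above, and no test was made on them.

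**Figure D3:**
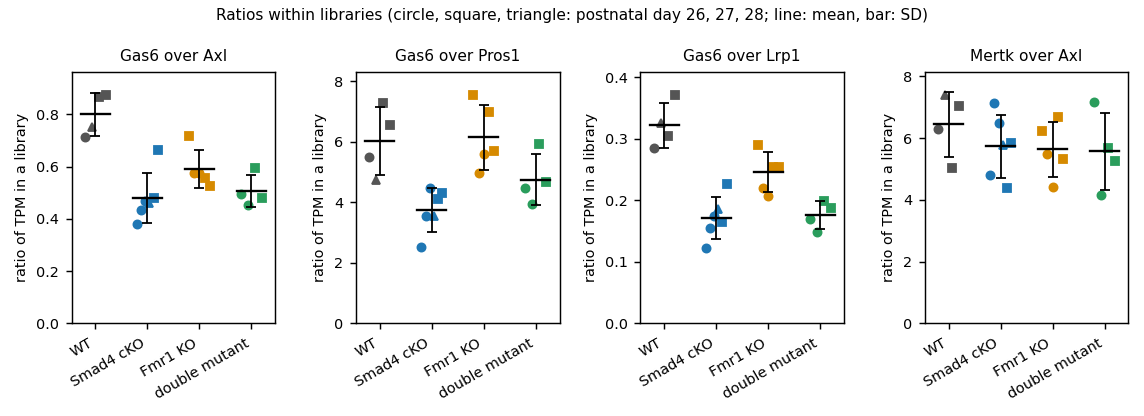
Ratios of scaled TPM between members within each library, by genotype, with a point for each library, a line for the mean and a bar for the SD. Gas6 over Axl lies between 0.712 and 0.875 in the 4 WT libraries and between 0.380 and 0.664 in the 6 Smad4 cKO libraries.

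Correlations over the 19 libraries describe which members moved together, on log2(scaled TPM + 1), and the libraries share genotype and cell makeup. Megf10 and its adaptor Gulp1 had a Pearson r of 0.71, and of 0.72 once each genotype's mean was removed. Mfge8 and Lrp1 had 0.33 in levels and 0.82 about the genotype means. Mertk and Axl had 0.54 and 0.62. Gas6 and Lrp1 had -0.60 in levels and -0.03 about the genotype means, so their opposite course lay between genotypes and not among libraries of the same genotype. Over all tested genes, those most like Gas6 were Endou (r = 0.87) and Astn2 (0.86). For Mertk they were Tnik (0.92) and Idh2 (0.89), for Mfge8 Paqr7 (0.95) and Fjx1 (0.94), and for Gulp1 Cpe (0.91) and Tcf4 (0.90). For Lrp1 they were the protocadherins Pcdhga12 and Pcdhgb8 (both 0.90), which belong to a cluster with shared exons. Megf10 was most like Larp1 (0.90) and Lims1 (0.84), Axl most like Cyp4f15 and Zfp994 (both 0.84), Pros1 most like Rin3 (0.91) and Apobec1 (0.89), and Itgb5 most like Rreb1 (0.86) and Gmeb1 (0.74).

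**Figure D4:**
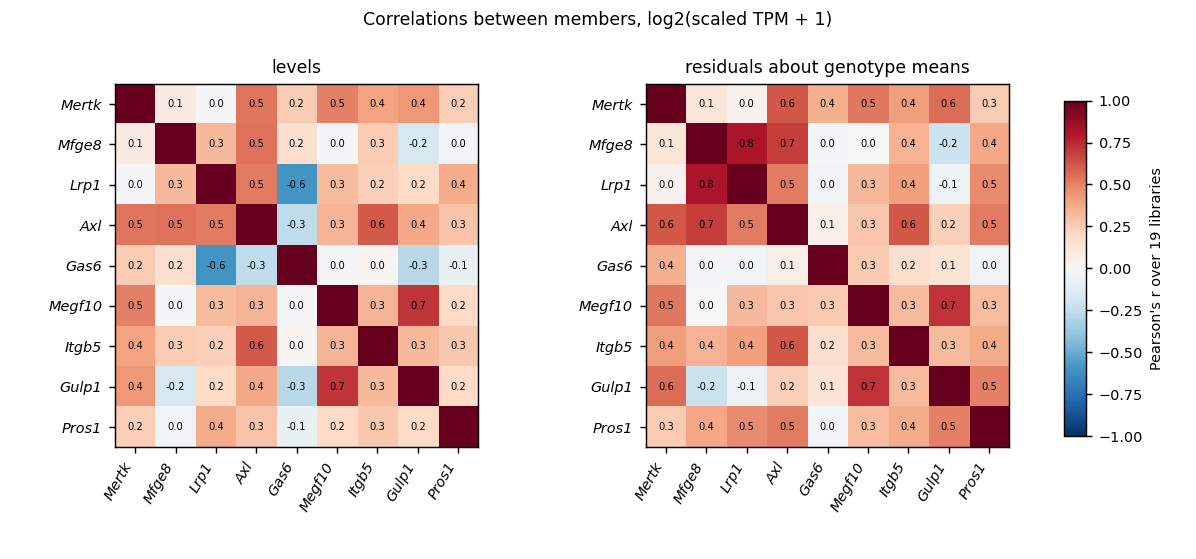
Pearson correlation between the 9 members over the 19 libraries, from levels and from residuals about the genotype means. Gas6 and Lrp1 are at -0.60 in levels and at -0.03 in residuals, and Mfge8 and Lrp1 at 0.33 and 0.82.

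Further genes of engulfment were counted in 7 lists. Beside these counts, 1.81% of all genes passed for the averaged Smad4 label and 1.53% for the averaged Fmr1 label. Before adjustment 11.0% and 13.2% of all genes were below 0.05 for these labels. Of 18 other engulfment receptors 8 were tested, and 0 passed for the averaged Smad4 label (1 unadjusted). For the averaged Fmr1 label 1 passed, with 4 unadjusted. The gene that passed was Pear1, a relative of Megf10, which fell by 1.00 ± 0.21 (limma, adjusted p = 0.0266). Its means were 5.69 ± 3.72 scaled TPM in WT and 5.62 ± 1.95 in Smad4 cKO, against 2.22 ± 0.609 in Fmr1 KO and 2.12 ± 0.908 in the double mutant. With cell-type scores in the model Pear1 was at -0.09 (adjusted p = 0.916), in a fit where 0 of all genes passed for this label. Without the scores all 10 endothelial markers were below 0 in this comparison and 6 passed. Their part in the Pear1 value was not tested. Pear1 passed in 21 of 30 alternatives. It lost its call without Fmr1 KO replicate 4 or 5 or double mutant replicate 2 or 3, with quantile normalization (0.0753), the replicate block (0.0880), day as a factor (0.0708) and without day 28 (0.0802). The lipoprotein receptor Scarb1 was at -0.25 ± 0.09 (adjusted p = 0.185) and Scarf1 at -0.40 ± 0.15 (0.234) for the Fmr1 label. Scarb1 and Scarf1 had the smallest p of this list for the averaged Smad4 label, where its 8 tested genes lay between -0.148 and 0.189.

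Signalling and cytoskeletal genes behind the receptors, 19 tested of 19, had 0 passing for either averaged label by limma, with 2 unadjusted for Smad4 and 0 for Fmr1. Elmo2, part of the Rac-activating complex downstream of engulfment receptors, was at -0.34 ± 0.09 for Smad4 (limma, adjusted p = 0.0747), and Abca1, a lipid exporter, at 0.15 ± 0.06 (0.263). The kinase Ptk2 was at 0.11 and Rac1 at 0.06 for Fmr1. Of 19 phagosome and lysosome genes tested, 0 passed for either label, with 1 and 2 unadjusted. The lysosomal sterol carrier Npc2 was at 0.20 for Smad4, and the lysosomal regulator Tfeb at 0.26 and Rab5a at 0.13 for Fmr1.

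Of 14 genes tested for phosphatidylserine exposure and eat-me or do-not-eat-me signals, 0 passed for either averaged label. Before adjustment 4 were below 0.05 for each label, beside 11.0% of all genes for Smad4 and 13.2% for Fmr1. The flippase Atp8a1, which moves phosphatidylserine to the inner leaflet, rose by 0.48 ± 0.10 in the double mutant against WT (limma, adjusted p = 0.0294), from 30.4 ± 2.36 (n = 4) to 42.8 ± 2.69 (n = 4), and passed in 21 of 32 alternatives. It lost the call without WT replicate 1 or 2 or any 1 of the 4 double mutant replicates, and its adjusted p reached 0.249 with cell-type scores in the model, at 0.39. In the double mutant against WT all 10 oligodendrocyte markers were above 0 (median 1.29), as were all 10 of oligodendrocyte precursors (0.726). Their part in the Atp8a1 value was not tested. The scramblase Ano6 was at -0.33 ± 0.09 for Smad4 (adjusted p = 0.0811), and Cd47, the do-not-eat-me ligand, at 0.16 ± 0.04 for Fmr1 (0.0584). In the list of TAM ligand carboxylation and receptor shedding, 0 of 10 passed for either label, with 1 and 3 unadjusted. Socs1, a suppressor of cytokine signalling induced through TAM receptors in immune cells, was at 0.57 ± 0.18 for Smad4 (adjusted p = 0.148) and 0.59 ± 0.18 for Fmr1 (0.115). Socs3 was at -0.59 for Fmr1, and the sheddase Adam10 at 0.09 for Smad4.

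The list of LRP1 chaperones, ligands and adaptors had 12 tested genes. Among them was Lrp4, a relative of LRP1 in the lipoprotein receptor family that is not shown here to act with it. Lrp4 fell with the averaged Smad4 label by 0.42 ± 0.07 (limma, adjusted p = 0.00287). It was the 1 of 12 that passed, and 0 passed for Fmr1 (1 unadjusted). Lrp4 stood at 105 ± 14.7 scaled TPM in WT, 78.6 ± 6.41 in Smad4 cKO, 114 ± 11.9 in Fmr1 KO and 84.4 ± 11.3 in the double mutant. The libraries of either Smad4 label did not overlap within day 26 (-0.45) or day 27 (-0.40), where 3.42% and 1.16% of genes were lower without overlap. The adaptor Dab2 was at -0.43 ± 0.13 for Fmr1 (adjusted p = 0.140), and Shc1 at 0.17 for Smad4 (0.145).

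Of 9 complement genes tested, 1 passed for each averaged label, C4b, a component of the classical pathway. It rose with the Smad4 label by 1.34 ± 0.23 (limma, adjusted p = 0.00276) and fell with the Fmr1 label by 1.03 ± 0.23 (adjusted p = 0.0336). Its means were 46.4 ± 14.3 scaled TPM in WT, 121 ± 48.0 in Smad4 cKO, 23.4 ± 13.8 in Fmr1 KO and 56.0 ± 6.09 in the double mutant. C4b has a near-identical copy, so its value is uncertain. The Smad4 call was kept in 31 of 31 alternatives. The Fmr1 call was kept in 16 of 31 and was lost without WT replicate 2 or 4, Smad4 cKO replicate 3, Fmr1 KO replicate 1, 3, 4 or 5, or double mutant replicate 2, 3 or 4. In the averaged Fmr1 comparison 0 of the 9 complement genes were above 0, with a median of -0.4, and Serping1 was at -0.48 (adjusted p = 0.218). Microglia markers, which include complement genes, had 0 of 15 passing there and a median of -0.369, and all 15 were below 0. With microglia, neuron and endothelial scores in the model, C4b was at -0.46 for the Fmr1 label (limma, adjusted p = 0.694) and at 1.29 for the Smad4 label (0.00324). With those scores 0 of all genes passed for the Fmr1 label and 361 for the Smad4 label.

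**Figure D5:**
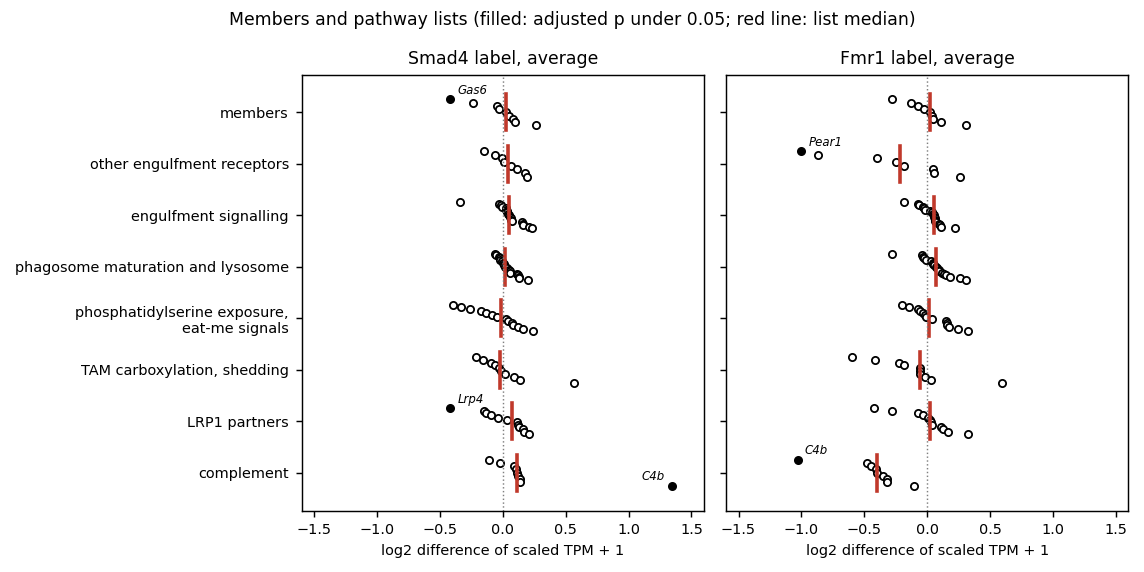
Log2 differences of the 9 members and the tested genes of the 7 lists for the averaged Smad4 label and the averaged Fmr1 label, with a point for each gene, filled where it passed, and a red line at each median. C4b lies at 1.34 for Smad4 and -1.03 for Fmr1, and Lrp4 and Gas6 both lie at -0.42 for Smad4.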

How the data were processed

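The deposited table holds TPM made by the authors, 1 column per library. Per the submitters' processing notes the tools were bcl2fastq 2.20, MultiQC 1.0, STAR 2.5.3a and HOMER 4.10.4 on mm10, and exon or gene-body counting is not stated there. Listed values of the deposited TPM add up to 665382 to 716222 per library. TPM keeps no depth, so read depth is unknown and no counting interval is given. Libraries were prepared after ribosomal RNA depletion, per the labels' protocols.

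TPM were scaled per library by a median-of-ratios factor (0.9207 to 1.0691, over 14084 genes). The filter kept a mean TPM of 1 or more, and log2(scaled TPM + 1) was fitted with limma-trend over all 19 libraries by genotype, with Benjamini-Hochberg adjustment over 15049 genes within each of 8 comparisons. A log2 fold on this scale understates changes of low genes. The p-values measure the spread between libraries, which the series design calls biological replicates. The procedure was also run on simulated data with independent noise in each gene, and the outcome is not reported here. The simulation held no effect of cell makeup or postnatal day, so it does not show how such effects bear on the calls. R 4.3.3, limma 3.58.1, Python 3.11.15, pandas 2.3.3 and matplotlib 3.10.9 were used.

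The 9 members and the 7 pathway lists were chosen with earlier results of these data known, so no list is independent evidence. Named genes are all members, list genes that passed in any comparison, the 2 per list with the smallest p for each averaged label, and the 2 genes most correlated with each member. Of the genes this rule gave, 1 is not reported here. Alternatives were no library factor, quantile normalization, pseudocounts of 0.1 and 0.5, other filters, a replicate block, day as a factor, cell-type scores, compared groups alone, library weights and fits without 1 library. Leaving out the libraries of highest neuron score, or those of day 28, was added after seeing the data.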

Additional observations from a re-analysis of the deposited data

Results flagged for a closer look

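Mfge8 was flagged for 2 libraries far from the others of their genotype, out of 36 groups examined by a gap test that chance trips about 1 time in 20. Fmr1 KO replicate 2 was at 585.62 scaled TPM with the next library at 328.1, a gap of 0.779 of the group's range. The same library had the highest astrocyte marker sum, 14276, and the highest microglia marker sum, 499.8, of its genotype. It was also highest there for endothelial (284.39) and mural and fibroblast markers (172.18), but not for neuron, oligodendrocyte or oligodendrocyte precursor markers. Double mutant replicate 4 was at 224.56 with the next at 303.49, a gap of 0.907 of the range, and its astrocyte marker sum, 8769.3, was the lowest of its genotype. Its microglia (115.49) and oligodendrocyte precursor (853.0) sums were also the lowest there, but those of the other lists were not. The part of these sums in the Mfge8 values was not tested.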

How the results depend on the processing

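Over 2277 settings of member and comparison, 2259 kept their side of the threshold, 10 gained a call and 8 lost one. No called difference changed sign, and 114 uncalled ones did. Gas6 passed in Smad4 cKO against WT in 32 of 32 alternatives (adjusted p 0.00323 to 0.0457) and for the averaged Smad4 label in 31 of 31 (0.00149 to 0.0142). In the double mutant against WT the 1 member passing became 0 with the replicate block (adjusted p = 0.0716), cell-type scores (0.172), the compared groups alone (0.0718) and without day 28 (0.0908, chosen after seeing the data), and 0 to 1 when leaving out single libraries. For the averaged Smad4 label the count went from 1 to 2, by Lrp1, with quantile normalization (0.0196), the replicate block (0.0204), day as a factor (0.0232), cell-type scores (0.0148) and library weights (0.0292), and ranged from 1 to 2 when leaving out single libraries. For the averaged Fmr1 label it went from 0 to 1 with library weights (Pros1, 0.0447). The cause was not tested.

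Genes called over the table moved by more than 1.5 times in several comparisons: from 118 to 62 with compared groups alone in Smad4 cKO against WT, from 144 to between 46 and 360 in the double mutant against WT, from 230 to between 0 and 607 for the averaged Fmr1 label, from 61 to 20 in the double mutant against Fmr1 KO, and from 0 to 163 in Fmr1 KO against WT without WT replicate 3. For the averaged Fmr1 label the 0 came with cell-type scores in the model and the 607 without a library factor. Replicate numbers showed no sign of pairing libraries. The 25 same-numbered pairs correlated at -0.266 to 0.202, 5 of them above 0.1. The 109 pairs with different numbers correlated at -0.405 to 0.419, 22 of them above 0.1. No other block result changed a member's call. Unknown read depth limits low genes such as Pros1.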
